A study of Mus musculus with 2 samples.

Results

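Binding of the vitamin D receptor (VDR) at 50 genes of the Wnt signalling pathway was examined in mouse left ventricle at stage E16.5. The genes are 19 ligands, 13 receptors and co-receptors, 6 secreted inhibitors, 8 signal transducers and 4 DNA-binding factors, and they were taken by name from the 49993 genes of the RefSeq table, of which 21896 are protein-coding. A peak was counted for a gene when its summit lay inside the gene's span or within 10 kb of either end. DNA bound by VDR had been recovered by chromatin immunoprecipitation and sequenced from ventricles of embryos whose mothers ate either a normal or a vitamin D deficient diet. Each diet has 1 library and 1 deposited peak list. That of the normal diet holds 23456 peaks and that of the deficient diet 37661. Beyond stage and diet, no strain, genotype, sex, number of pooled embryos or control library is given in the sources used here. With no replicates, every difference below is between 2 libraries, carries no test, and cannot be told apart from depth, animal or preparation. Peak lists hold no expression values, so the tissue label was not checked against marker genes.

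Wnt proteins are secreted, lipid-modified ligands that bind Frizzled receptors on the cell surface. In the canonical branch, Frizzled and the co-receptor Lrp6 stop the Axin, Apc and Gsk3b complex from marking beta-catenin for destruction, and beta-catenin then works with TCF/LEF factors on DNA. Other branches signal through Ror receptors, cell polarity and calcium. In the forming heart, Wnt signals are known to guide mesoderm specification, outflow tract growth and valve formation. VDR is a nuclear receptor that binds DNA together with a retinoid X receptor when it holds its hormone, and cross-talk of VDR with beta-catenin is known from other tissues.

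VDR peaks were frequent at these genes in both libraries. In the normal-diet list 40 of the 50 genes had a peak, 80% of them, where 49.8% of all protein-coding genes and 35.3% of all genes had one. In the deficient-diet list 42 genes had a peak, 84%, against 59.4% of protein-coding genes and 44.5% of all genes. Both lists had a peak at 34 genes, 68%, against 40.6% of protein-coding genes. Neither list had one at Fzd7 and Lrp6, where 31.4% of protein-coding genes were without a peak. Overlapping peaks, sharing at least 1 bp, were found at 20 genes, 40%, against 22.5% of protein-coding genes. Inside the span itself, 36 of 50 had a normal-diet summit, where the background was 35.4%, and 39 had a deficient-diet one, where it was 43.8%. Within 1 kb of a span end, 18 of 50 had a normal-diet summit, with a background of 18.5%, and 25 had a deficient-diet one, where it was 21.9%.

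The share of genes with a peak rose with span length among protein-coding genes. When protein-coding genes were given the same mix of 5 span classes as the 50 genes, their shares came to 52.1% for the normal diet, 61.7% for the deficient diet, 43.0% for both lists and 23.9% for overlapping peaks. The Wnt pathway genes were above each of these figures. Among the 9 genes under 5 kb, mostly Frizzled genes, 6 had a normal-diet and 7 a deficient-diet peak, where protein-coding genes of that length had one in 33.3% and 41.5%. Among the 9 genes over 100 kb the counts were 8 and 7, against 73.4% and 82%, and among the 3 of 50 to 100 kb they were 3 and 2, against 56.8% and 68.9%. In these longest classes the deficient-diet counts did not stand above the background. Per length of merged window, the 50 genes had 25.3 normal-diet and 39.2 deficient-diet peaks per Mb, and protein-coding genes 12.2 and 19.3.

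**Figure D1:**
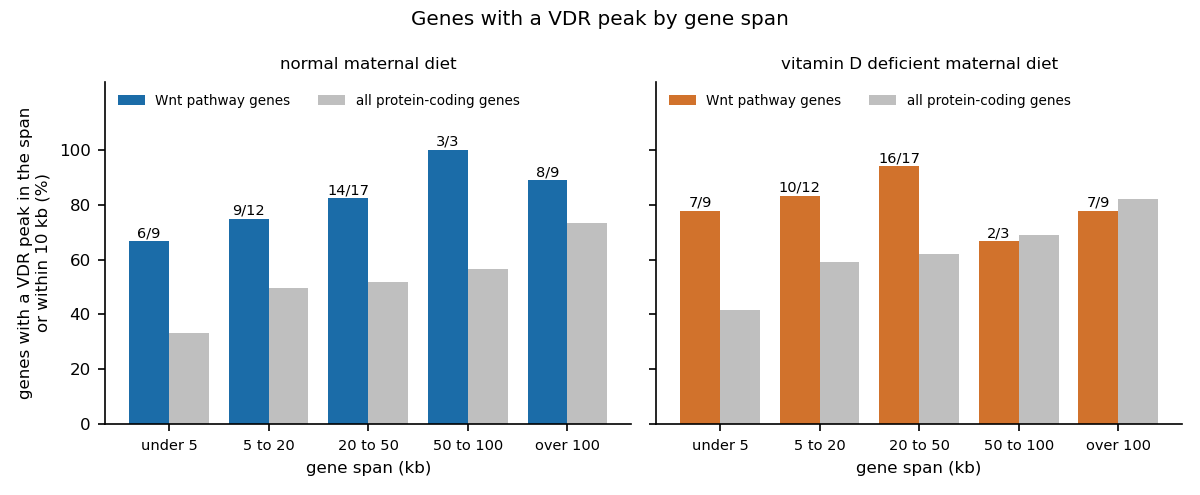
Share of genes with a VDR peak in the span or within 10 kb (vertical axis, %) by gene span (horizontal axis, kb), for the normal-diet library on the left and the deficient-diet library on the right. Coloured bars are the Wnt pathway genes, with the number with a peak over the number in the class, and grey bars are all protein-coding genes; in the deficient-diet library the coloured bar is below the grey one in the classes of 50 to 100 kb, 2 of 3 against 68.9%, and over 100 kb, 7 of 9 against 82%.

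Base composition moved with these counts. The 300-base promoter windows of RefSeq, which run from 250 bases before a transcription start to 50 after it, matched 37 of the 50 genes. Their median GC content was 68.7%, against 52.7% over all 32851 windows. Of the 37 genes, 33 had a window of 60% GC or more. Among these 33, a peak in the gene's span or within 10 kb was found for 27 on the normal diet, 81.8%, and for 29 under deficiency, 87.9%. Protein-coding genes of the same GC class had one in 64.0% and 72.6%, a smaller distance than from all protein-coding genes. The part of GC content in the counts was not tested beyond this comparison.

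Summits near transcription starts were counted next. Of the 37 genes with a listed start, 13 had a normal-diet summit within 1 kb of a start, against 17.1% of protein-coding genes, and 19 had a deficient-diet summit, against 18.8%. In the class of 60% GC or more the shares were 33.3% and 51.5% for the Wnt pathway genes, and 26.8% and 27.0% for protein-coding genes. No summit of either list fell in any of the 46 promoter windows of these genes. Over all protein-coding genes, 3.85% and 3.84% had a summit there, so a count of 0 among 37 genes is near the background. Of the 35 summits within 1 kb of a start, 26 lay after the start in the direction of transcription, and the closest was 107 bp away. By library, 71.4% of the normal-diet and 76.2% of the deficient-diet ones lay after it, near the 79.3% and 79.4% of protein-coding genes outside the promoter window. In the stretch from 50 to 1000 bp after the start, 10 of the 37 genes had a normal-diet summit and 15 a deficient-diet summit, 27.0% and 40.5%. Protein-coding genes of all GC classes together had one in 11.9% and 13.2%. This stretch was not compared within a GC class. The table gives no exons, so these positions were not divided into exon and intron.

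**Figure D2:**
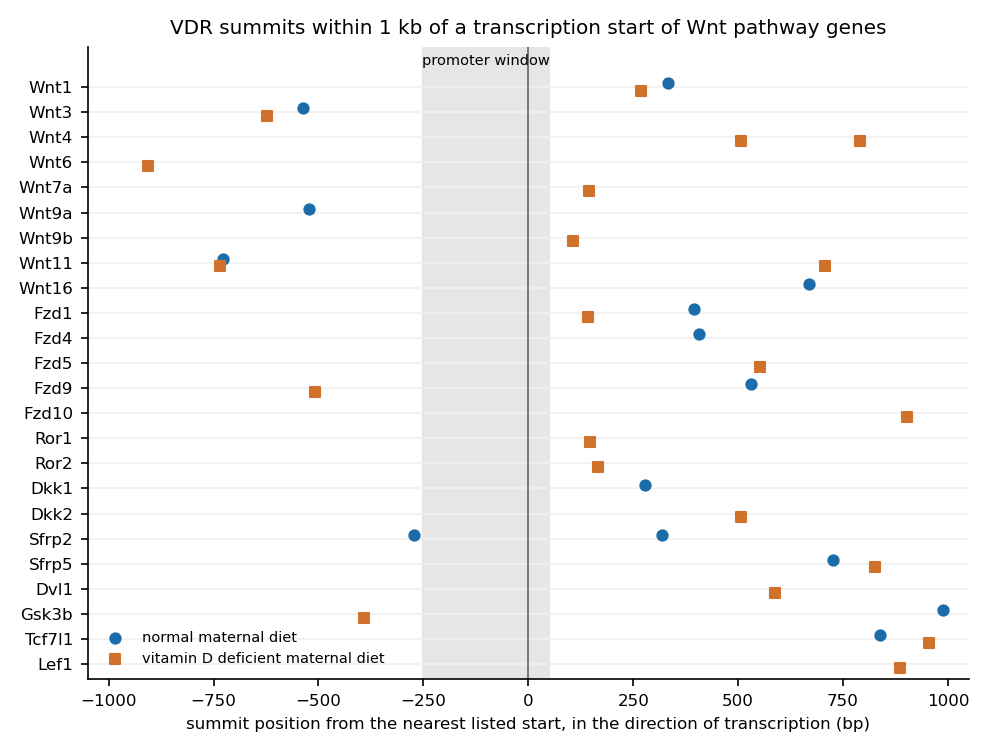
Position of each VDR summit within 1 kb of a transcription start (horizontal axis, bp from the nearest listed start in the direction of transcription), with 1 line per Wnt pathway gene; blue circles are the normal-diet library and orange squares the deficient-diet library. The grey band is the promoter window, which holds no summit, and 26 of the 35 summits lie to the right of the start.

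Peaks reached into the promoter window at 5 genes from a summit outside it: Sfrp2 with the normal diet, and Ror1, Fzd9, Wnt9b and Wnt1 under deficiency. Over all genes, 5.24% of windows were touched by a normal-diet peak and 5.41% by a deficient-diet peak. Among the 46 windows of the Wnt pathway genes, these were 1 and 4. The 5 windows are printed from RefSeq, build GRCm38.p6, in the direction of transcription, to show the bases that the peaks cover. Capitals mark the covered bases, which number 148 at Sfrp2, 55 at Ror1, 8 at Fzd9, 215 at Wnt9b and 10 at Wnt1.
Sfrp2, chr3:83766071-83766370, plus strand: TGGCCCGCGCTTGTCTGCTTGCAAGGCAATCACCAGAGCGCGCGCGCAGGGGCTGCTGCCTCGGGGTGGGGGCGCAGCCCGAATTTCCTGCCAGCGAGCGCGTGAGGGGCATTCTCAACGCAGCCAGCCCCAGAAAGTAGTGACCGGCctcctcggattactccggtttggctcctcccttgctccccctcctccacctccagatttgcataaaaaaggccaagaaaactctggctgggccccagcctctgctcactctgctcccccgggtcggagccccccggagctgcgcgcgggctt
Ror1, chr4:100095541-100095840, plus strand: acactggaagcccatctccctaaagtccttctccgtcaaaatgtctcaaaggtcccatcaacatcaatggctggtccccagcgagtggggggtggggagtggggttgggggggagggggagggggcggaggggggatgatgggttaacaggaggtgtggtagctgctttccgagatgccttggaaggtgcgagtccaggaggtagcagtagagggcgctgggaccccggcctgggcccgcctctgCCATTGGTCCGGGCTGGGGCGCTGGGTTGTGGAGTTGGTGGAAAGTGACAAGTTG
Fzd9, chr5:135250998-135251297, minus strand: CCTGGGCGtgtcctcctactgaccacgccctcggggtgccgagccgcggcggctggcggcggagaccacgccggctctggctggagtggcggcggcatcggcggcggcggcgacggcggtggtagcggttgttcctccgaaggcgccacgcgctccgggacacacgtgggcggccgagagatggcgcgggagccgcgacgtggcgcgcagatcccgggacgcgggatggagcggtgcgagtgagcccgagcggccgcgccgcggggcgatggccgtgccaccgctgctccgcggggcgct
Wnt9b, chr11:103749772-103750071, minus strand: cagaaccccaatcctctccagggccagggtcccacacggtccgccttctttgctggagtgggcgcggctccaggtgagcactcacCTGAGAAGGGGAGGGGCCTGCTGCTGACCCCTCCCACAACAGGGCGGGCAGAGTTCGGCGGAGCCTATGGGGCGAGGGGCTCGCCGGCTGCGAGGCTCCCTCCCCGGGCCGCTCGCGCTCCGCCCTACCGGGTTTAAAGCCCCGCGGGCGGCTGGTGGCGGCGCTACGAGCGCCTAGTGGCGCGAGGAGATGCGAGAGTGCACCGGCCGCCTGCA
Wnt1, chr15:98789607-98789906, plus strand: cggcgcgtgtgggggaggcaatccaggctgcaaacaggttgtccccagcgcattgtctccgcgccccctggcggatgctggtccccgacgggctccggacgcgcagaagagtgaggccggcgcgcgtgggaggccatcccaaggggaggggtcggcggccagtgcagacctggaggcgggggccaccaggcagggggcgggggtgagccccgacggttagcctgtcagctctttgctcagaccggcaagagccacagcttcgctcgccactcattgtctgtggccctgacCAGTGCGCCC
The windows are rich in GC, at 66% for Sfrp2, 62.3% for Ror1, 78% for Fzd9, 71.7% for Wnt9b and 70.7% for Wnt1.

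Short motifs were looked for on both strands of the promoter windows. The TCF/LEF core was searched as CTTTGAT or CTTTGAA. It was present in 8.65% of all windows and in 3 of the 46 windows here, those of Dkk1, Wnt11 and Wnt5b. The hexamer AGGTCA, the unit from which nuclear receptor sites are built, was in 16.3% of all windows and in 2 of the 46 windows here, those of Tcf7 and Wnt16. Its exact direct repeat with a spacer of 3 bases, the textbook arrangement for VDR with a retinoid X receptor, was in 2 of all 32851 windows and in none of these. None of the 5 printed windows held any of these letter strings.

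Peaks at Wnt pathway genes were of ordinary height for their lists. The summit pileup, the number of fragments over the summit recovered from the deposited values, ran from 12 to 22 with a median of 16 over the 87 distinct normal-diet peaks. It ran from 17 to 31 with a median of 22 over the 135 deficient-diet peaks. These medians are those of the whole lists. The authors' median -log10 q, the peak caller's p-value adjusted for multiple testing, was 4.72 against 4.49 for all normal-diet peaks and 4.15 against 3.95 for all deficient-diet peaks. A -log10 q of 5 or more was reached by 27 and 29 of the peaks, 31.0% and 21.5%, and by 35.0% and 24.3% of the whole lists. Background at the summit was at most 4.71 fragments for normal-diet peaks and 9.70 for deficient-diet peaks, while the whole lists reach 154.9 and 260.0.

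The libraries differed in recovered background and in the lowest pileup called over it. Whether this bears on genes with a peak in 1 list alone was not tested. The genome-wide background was 2.65 fragments with the normal diet, against 5.38 with the deficient one. At that background the smallest called pileup was 11 in the former, 4.15 times background, and 16 in the latter, 2.97 times background. Of the 135 deficient-diet peaks at Wnt pathway genes, 100 stood at less than 4.15 times their own background, a height at which no peak was called in the normal-diet library at its genome-wide background. That is 74.1% of them, against 71.8% of the whole deficient-diet list.

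**Figure D3:**
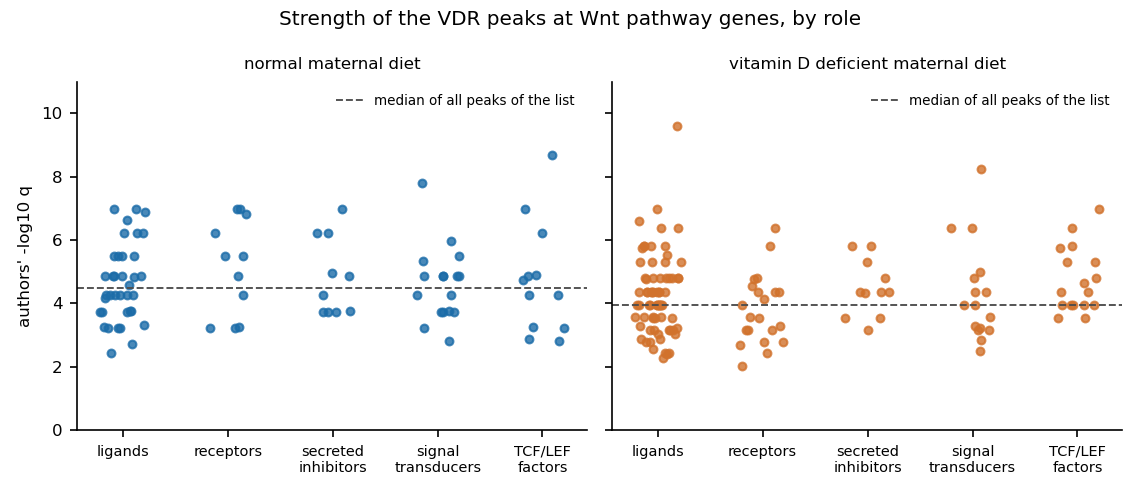
The authors' -log10 q of each VDR peak at Wnt pathway genes (vertical axis) by the gene's role (horizontal axis), with normal-diet peaks on the left and deficient-diet peaks on the right; points are spread sideways for sight only. The dashed line is the median of the whole list, 4.49 on the left and 3.95 on the right, and peaks of every role lie on both sides of it.

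Deficient-diet peaks made up 60.8% of the 222 peaks at these genes (95% exact binomial interval 54.1 to 67.3%), and 61.3% of those at protein-coding genes. By role the share was 65.4% for ligands (55.6 to 74.4%), 65.6% for receptors (46.8 to 81.4%), 52.4% for inhibitors (29.8 to 74.3%), 48.5% for transducers (30.8 to 66.5%) and 58.6% for TCF/LEF factors (38.9 to 76.5%). Each interval holds the figure for protein-coding genes. The intervals cover counting error alone, take peaks as independent though some genes hold several, and are no test of diet. Overlap between neighbouring genes' peaks is counted once. The deficient-diet list had more peaks than the normal-diet list at 31 of the 50 genes, fewer at 11 and as many at 8. Protein-coding genes had more in 38.3%, fewer in 16.7% and as many in 45%. Genes with no peak in either list count as having as many, which holds for Fzd7 and Lrp6 here and for 31.4% of protein-coding genes. These shares therefore also follow how many genes had a peak at all. Ligands are 19 of the 50 genes and were 16 of the 31 with more deficient-diet peaks. Receptors are 13 of the 50 and were 8 of the 31. The share of deficient-diet peaks given above was alike for both roles, at 65.4% and 65.6%.

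**Figure D4:**
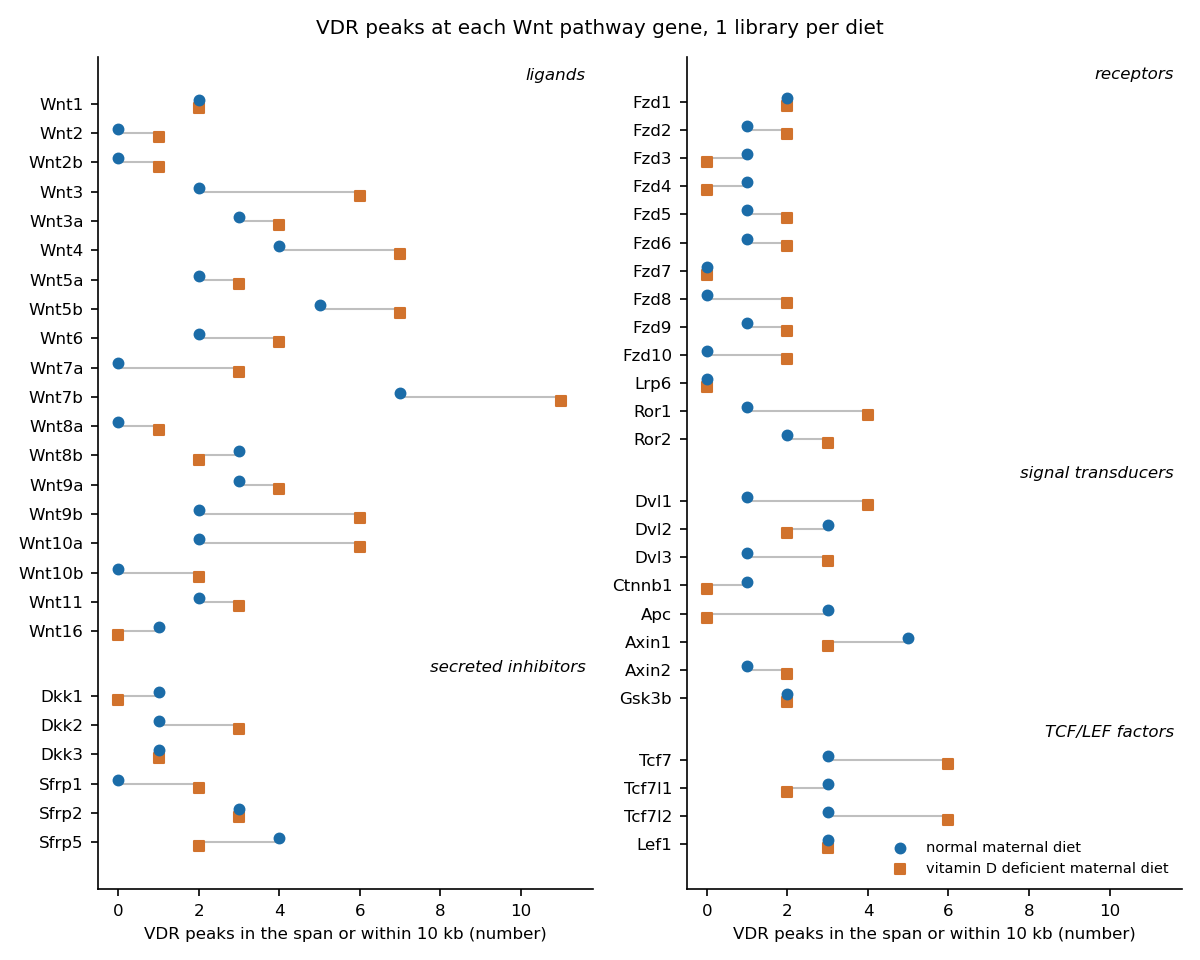
Number of VDR peaks in the span or within 10 kb (horizontal axis) for each of the 50 Wnt pathway genes (vertical axis), grouped by role; blue circles are the normal-diet library, orange squares the deficient-diet library, and a grey line joins the values of a gene. Wnt7b has the most peaks in both libraries, 7 and 11, and Fzd7 and Lrp6 have none.

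Ligands were the most densely covered role, with 40.2 normal-diet and 76.0 deficient-diet peaks per Mb of window. Of the 19 ligand genes, 14 had a normal-diet and 18 a deficient-diet peak, and 11 had overlapping peaks. Protein-coding genes of the same mix of span classes had these in 51.2%, 61.1% and 22.1%. Wnt7b, a ligand best known from lung and kidney development, had 7 normal-diet peaks and 11 deficient-diet ones. Its span is on chromosome 15 from 85535437 to 85581821, and 3 sites were shared. The first had its summit 99 bp outside the lower-numbered end of the span with the normal diet and 273 bp with deficiency, from 85535059 to 85535416 with 19 fragments in the normal-diet library and from 85535114 to 85535392 with 22 in the deficient-diet library. The other two lay inside the gene with summits 38 and 32 bp apart between the lists, with 16 and 22 fragments at the one and 15 and 21 at the other. Toward the other end of the span, 5 deficient-diet peaks from 85566366 to 85578168 had no normal-diet peak among them, as the map of the 4 genes shows.

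Wnt5b and Wnt4 came next in number of peaks. Wnt5b, a ligand of the non-canonical branch, is on chromosome 6 from 119432531 to 119544824 and had 5 normal-diet and 7 deficient-diet peaks. Its shared site, inside the span and in the overlapping gene Fbxl14, was wide in both lists, 765 and 847 bp, with 18 and 27 fragments, and the summits were 644 bp apart. Wnt4, which acts in kidney and gonad formation, is on chromosome 4 from 137277635 to 137299501 and had 4 and 7 peaks, none overlapping. Its deficient-diet list included summits 507 and 790 bp after the start, with 26 and 19 fragments. The normal-diet peak closest to that start had its summit 5742 bp after it, with 13 fragments.

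**Figure D5:**
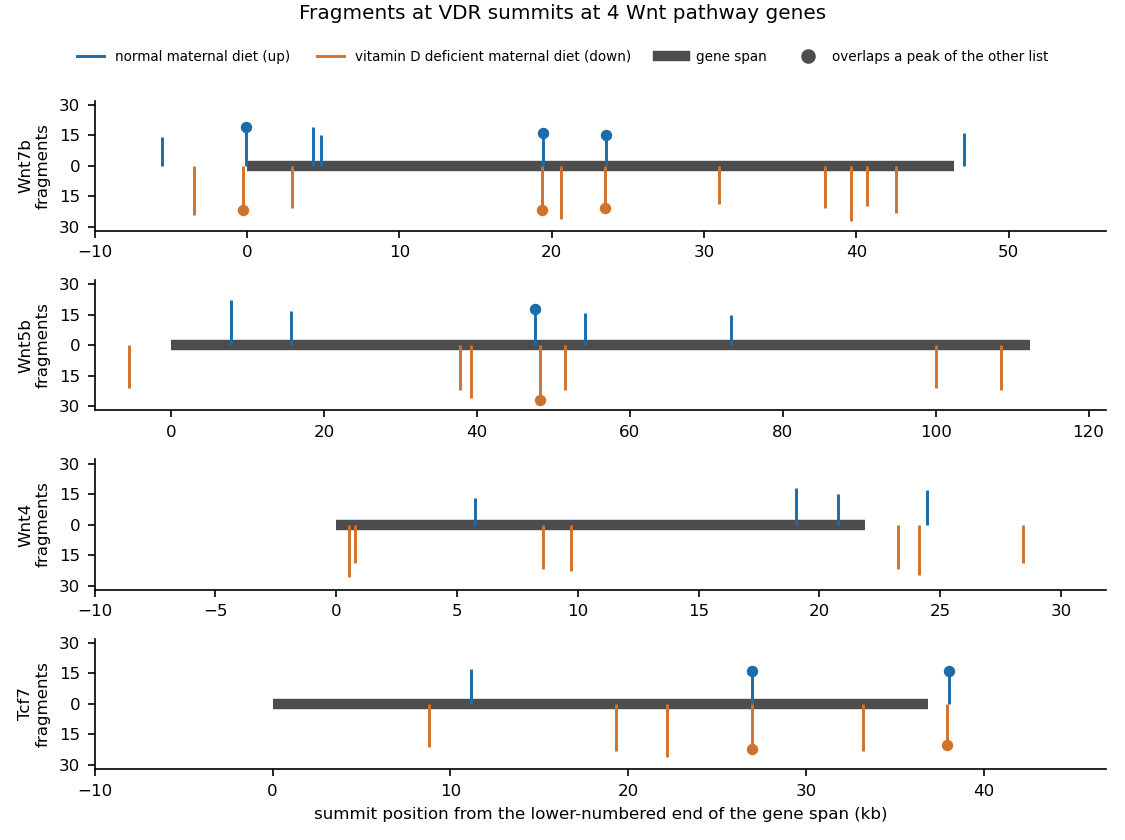
VDR summits along Wnt7b, Wnt5b, Wnt4 and the factor gene Tcf7 (horizontal axis, kb from the lower-numbered end of the span), with the number of fragments at the summit (vertical axis) drawn upward (normal diet) and downward (vitamin D deficient diet). The dark bar is the gene span and round ends mark peaks that overlap a peak of the other list, 3 at Wnt7b, 1 at Wnt5b, none at Wnt4 and 2 at Tcf7.

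Wnt5a, the main ligand of the Ror receptors, held the strongest deficient-diet peak of the 50 genes. Within the Wnt5a span on chromosome 14, it ran from 28522506 to 28522747, with 31 fragments over a background of 5.38 and a -log10 q of 9.60, at rank 545 of its list. The normal-diet peak there, from 28522609 to 28522839, had 15 fragments over 2.65 and a -log10 q of 4.28, at rank 13067. Both libraries thus had a call at this site, 128 bp apart at the summit, with a pileup 5.76 times background in the deficient-diet and 5.65 times in the normal-diet library. These ratios are close, although the ranks are far apart.

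Wnt3 and Wnt9b are neighbours on chromosome 11 whose RefSeq spans overlap by 1098 bp, and a site inside Wnt9b falls in the windows of both. It lay 536 bp before the Wnt3 start in the normal-diet library, from 103773482 to 103773796 with 18 fragments, and 622 bp before it in the deficient-diet library, from 103773437 to 103773681 with 25. It is 1 of only 3 distinct sites, with 4 genes, that stayed shared at a -log10 q of 5 or more, beside 1 in Wnt3a and 1 in Tcf7l1. Over both genes the lists had 3 and 11 distinct peaks. Wnt3a, a canonical ligand, had 2 shared sites, on chromosome 11 from 59284207 to 59284440 with 19 normal-diet fragments and 24 deficient-diet ones, and from 59248296 to 59248493 with 16 and 25.

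Wnt6 and Wnt10a lie 6696 bp apart on chromosome 1, and the shared region between positions 74782008 and 74782834, inside Wnt6, counts for both. A single deficient-diet peak of 817 bp with 26 fragments covered 2 normal-diet peaks with 12 and 16 fragments. Wnt10a had 4 further deficient-diet peaks inside its span with no normal-diet peak there. Wnt8b had no peak inside its span in either list. Its shared site was 1638 and 1756 bp before the start, with 14 and 28 fragments and an overlap of 25 bp. Wnt11, known for its part in outflow tract formation, had a pair with summits 3033 and 3027 bp inside the span, 16 and 20 fragments, on chromosome 7 from 98838005 to 98838224 and from 98838029 to 98838217. Its summit gap of 6 bp was the smallest of all pairs, equalled at Axin1. Wnt1 had a pair 333 and 268 bp after its start, with 15 and 21 fragments.

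Among ligands with a peak in 1 list alone, Wnt16 had a single normal-diet peak 668 bp after its start, with 17 fragments, and its nearest deficient-diet summit was 13578 bp from the span. Wnt2, Wnt2b, Wnt7a, Wnt8a and Wnt10b had deficient-diet peaks alone. Wnt2, a ligand expressed in early cardiac mesoderm, had 1 of 21 fragments, and its nearest normal-diet summit was 409425 bp away. Wnt7a had 3, of 17, 23 and 20 fragments, the last with its summit 145 bp after the start. Wnt9a had 3 normal-diet and 4 deficient-diet peaks without overlap.

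Receptors were the least densely covered role, with 10.6 normal-diet and 20.1 deficient-diet peaks per Mb, near the 12.2 and 19.3 of protein-coding genes. Most of the receptors' 1.04 Mb of window belongs to Ror1, Ror2 and Lrp6, with spans of 349016, 176808 and 120438 bp. Ror1 had 1 normal-diet and 4 deficient-diet peaks, Ror2 had 2 and 3, and Lrp6 had none. The figures per Mb therefore weigh these long spans more than the shorter Frizzled genes. In each list 9 of the 13 genes had a peak, 7 had one in both, and 2 had overlapping peaks, Fzd1 and Fzd2. At their span classes, protein-coding genes had a normal-diet peak in 48.3%, a deficient-diet peak in 57.3%, both in 40.0% and overlapping peaks in 23.2%. At Fzd1, on chromosome 5, the normal-diet peak from 4757520 to 4758140 had 16 fragments and the deficient-diet peak from 4757946 to 4758126 had 24. At Fzd2, on chromosome 11, the normal-diet peak from 102605173 to 102605563 had 18 fragments and a -log10 q of 6.22. The deficient-diet peak there, from 102605087 to 102605336, had 24 fragments over a raised background of 7.76 and a -log10 q of 3.29. Both sites are inside genes under 5 kb long.

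Fzd3 and Fzd4 had a normal-diet peak alone, with 17 fragments 272 bp outside an end of Fzd3 and 13 fragments 406 bp after the start of Fzd4. Fzd8 and Fzd10 had 2 deficient-diet peaks each and no normal-diet peak. Fzd5, Fzd6 and Fzd9 had 1 normal-diet and 2 deficient-diet peaks each, none overlapping. Lrp6, the co-receptor of the canonical branch, has a span of 120438 bp and had its nearest summits 140702 and 123530 bp away. Of protein-coding genes over 100 kb, 73.4% and 82% had a peak. Fzd7 had no summit within 19761 bp.

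The Ror receptors, tyrosine kinase-like receptors of Wnt5a, had peaks in both lists without overlap. Ror1, the longest gene of the set at 349016 bp, had 1 normal-diet peak, with 19 fragments and a -log10 q of 6.98, close to its distal end. Its 4 deficient-diet peaks included 1 of 674 bp whose summit lay 147 bp after the start, with 25 fragments. Ror2 had 2 and 3 peaks, and its deficient-diet list likewise included a summit 165 bp after the start, with 22 fragments. At the distal end of Ror2 the lists had summits at 1234 and 982 bp from the end, with 21 and 24 fragments, that came near each other without overlap.

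Secreted inhibitors keep Wnt ligands or Lrp6 from signalling. Of the 6 genes, 5 had a peak in each list, 4 in both, and 3 had overlapping peaks. Protein-coding genes of their span classes had a normal-diet peak in 46.1%, a deficient-diet peak in 55.9% and both in 36.9%. Overlapping peaks were found at 19.96% of these protein-coding genes. Sfrp2, which encodes a Frizzled-related protein that binds ligands, had 3 peaks in each list. Normal-diet summits flanked its start, 273 bp before it and 319 bp after it, with 19 and 20 fragments and -log10 q values of 6.22 and 6.98, and no deficient-diet peak lay within 1 kb of that start. The shared site was near the far end of the gene, on chromosome 3 from 83773242 to 83773560 with 15 fragments and from 83773359 to 83773561 with 20, with summits 21 bp apart. Sfrp5 had 2 shared sites, 727 and 827 bp after the start and 2083 and 2132 bp before it, with 14 normal-diet fragments at each and 22 and 20 deficient-diet ones.

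Dkk1, which blocks Lrp6, had a normal-diet peak 278 bp after its start with 18 fragments, and the nearest deficient-diet summit was 111364 bp from the gene. Sfrp1 had the opposite pattern, with 2 deficient-diet peaks of 23 fragments each and the nearest normal-diet summit 154238 bp away. Dkk2 had a shared site inside the gene on chromosome 3, from 132144418 to 132144889 with 18 fragments and from 132144556 to 132144752 with 19. It also had deficient-diet summits 507 and 1915 bp after the start. Dkk3 had 1 peak in each list, without overlap.

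Signal transducers carry the message from the receptor to beta-catenin. All 8 genes had a normal-diet peak and 6 had a deficient-diet peak, with 17 and 16 distinct peaks. At their span classes 57.0% and 66.8% of protein-coding genes had one, and 26.7% had overlapping peaks. The genes without a deficient-diet peak were Ctnnb1, the beta-catenin gene, and Apc. The normal-diet peak of Ctnnb1 had 14 fragments and lay 4216 bp beyond the end of the gene, inside Ulk4. Apc had 3 normal-diet peaks with 17 to 19 fragments, 1 of them inside the span 710 bp from an end. The nearest deficient-diet summits were 47947 bp from Ctnnb1 and 36525 bp from Apc.

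Axin1, a scaffold of the destruction complex, had 5 normal-diet and 3 deficient-diet peaks. Its only shared site lay 7658 bp outside the span in Rgs11, on chromosome 17 from 26203378 to 26203607 with 14 fragments and from 26203396 to 26203557 with 22, and was the only overlapping pair among the transducers. Its strongest peak, with 20 normal-diet fragments and a -log10 q of 7.80, lay 4800 bp outside the span in Mrpl28. Axin2, a feedback inhibitor and well-known target of beta-catenin, had 1 normal-diet peak of 15 fragments and 2 deficient-diet peaks of 26 fragments, all inside the gene, and none overlapped. Dvl1, which relays the Frizzled signal, had the second strongest deficient-diet peak of the set, with 29 fragments and a -log10 q of 8.23, which lay 5522 bp before the gene inside Mxra8. Gsk3b, the kinase of the complex, had 2 peaks in each list, among them a normal-diet summit 989 bp after the start and a deficient-diet summit 391 bp before it. The Dvl1 relatives Dvl2 and Dvl3 had no overlapping peaks. Dvl2 had 3 normal-diet peaks of 13 to 17 fragments and 2 deficient-diet peaks of 19 and 25, the latter both beyond the gene in Acadvl. Dvl3 had 1 normal-diet peak of 14 fragments and 3 deficient-diet peaks of 22 each, all inside the gene.

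All 4 TCF/LEF factor genes had peaks in both lists, and 3 had overlapping peaks. Their spans are mostly long, and 60.1% and 35.9% of protein-coding genes of those span classes had the same. Lef1 held the strongest normal-diet peak of the 50 genes, on chromosome 3 from 131106600 to 131106804, with 21 fragments over 2.65 and a -log10 q of 8.67, at rank 990. It lay 3575 bp before the Lef1 start, in the span of the neighbouring gene Gm36603, and had no deficient-diet partner. The shared Lef1 site was just inside the gene, from 131111072 to 131111488 with 15 fragments and from 131110976 to 131111346 with 25. At Tcf7l1, on chromosome 6, the pair lay 839 and 956 bp after the start, from 72788084 to 72788381 with 19 fragments and from 72787998 to 72788243 with 27. Both calls there had a -log10 q over 5, at 6.98 and 5.29.

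Tcf7 had 3 normal-diet and 6 deficient-diet peaks. One shared site was inside the gene on chromosome 11, from 52273349 to 52273565 with 16 fragments and from 52273381 to 52273542 with 22. The other was before the start, from 52284477 to 52284768 with 16 and from 52284393 to 52284750 with 20. Tcf7l2 had 3 and 6 peaks, all inside its span of 191863 bp, and none overlapped. Its normal-diet peak from 55779973 to 55780180 and deficient-diet peak from 55779637 to 55779798, on chromosome 19, were neighbours with 19 and 22 fragments.

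Over the 50 genes there were 24 overlapping pairs, made of 24 normal-diet and 23 deficient-diet peaks, and 19 of the pairs lay inside a gene of the set. The share of peaks with a partner was 27.6% (95% exact interval 18.5 to 38.2%) with the normal diet, and 17.0% (11.1 to 24.5%) under deficiency. The whole lists had 34.0% and 21.3%, which lie inside these intervals. Counted per peak, sharing was not above that of the whole lists. The intervals take peaks as independent, though paired peaks enter both lists and some genes hold several peaks. They are no test of diet. Summits of a pair were 6 to 644 bp apart with a median of 99.5 bp. Pileups of the pairs ran from 12 to 19 for normal-diet peaks and from 19 to 31 for deficient-diet peaks. Relative to background, the deficient-diet summit was the higher in 3 of the 24 pairs. The lists did not admit the same ratios, since the lowest called at genome-wide background was 4.15 for normal-diet peaks and 2.97 for deficient-diet peaks. This count was not made over all overlapping pairs of the whole lists. Whether it is particular to these genes was therefore not tested.

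Genes with a peak in 1 list alone were 6 for the normal diet, 12% of the set, and 8 for the deficient diet, 16%. Protein-coding genes gave 9.16% and 18.8%, so these counts are near the background. The 8 peaks of the former group had 13 to 19 fragments, 4.41 to 6.41 times background, and a highest -log10 q of 5.51. The 14 of the latter had 17 to 24 fragments, 2.71 to 4.27 times background, and a highest -log10 q of 4.81. At 5 of the 8 deficient-diet genes every peak stood under 4.15 times background, the exceptions being Sfrp1, Wnt2b and Wnt7a. That ratio is the lowest called at the normal-diet genome-wide background. Where background was raised, normal-diet peaks were also called below it, as at Wnt5b with 3.82 times.

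A further 90 genes of the pathway were counted in the same way. Of these, 60 had a normal-diet and 70 a deficient-diet peak, 66.7% and 77.8%, 51 had one in both lists, and 32 had overlapping peaks. Protein-coding genes of the same mix of span classes had these in 56.8%, 66.8%, 47.8% and 27.0%, distances smaller than those of the 50 genes from theirs. Among 28 genes of ligand secretion, modulation and reception, 19 had a peak in each list, against 54.4% and 64.3%. Overlapping peaks were found at 10, against 26.1%, among them the R-spondin receptor gene Lgr5 and the Frizzled-related gene Frzb. Of 28 intracellular genes, 19 and 23 had a peak, against 57.8% and 67.8%. Apc2, a relative of Apc, had 9 and 10, with 4 overlapping pairs. Of 26 genes of the polarity and calcium branches, 17 and 21 had a peak, against 61.5% and 71.6%, and the cadherin gene Celsr1 had 7 and 15. Among 8 common target genes the counts were 5 and 7, against 46.4% and 56.1%. Ccnd1, Jun and Cd44 had deficient-diet peaks alone, 4, 1 and 1. Myc had 1 normal-diet peak alone. Sp5 had 2 normal-diet peaks and 1 deficient-diet peak, and Mycn and Fosl1 had as many in each list. The genes singled out from this wider list were chosen after their values were seen.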

How the data were processed

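VDR-bound DNA was profiled in 2 samples of mouse left ventricle at stage E16.5, grouped by the tissue label into normal and vitamin D deficient maternal diet. Per the submitters' processing notes, MACS2 and SAMtools were used with the mm10 build; the aligner, threshold and control are not given in the sources used here. The authors deposited 1 narrowPeak list per sample, with a fold enrichment (a ratio over local background) and the -log10 of the p-value and q-value at each summit. The deposited normal-diet list joins the end and the score by a point in 23455 peaks; these were taken apart, and 1 damaged peak was left out.

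Summit pileup and background were recovered by taking the deposited fold as pileup plus 1 over background plus 1 and the p-value as a Poisson tail, as MACS2 does. A whole pileup gave every deposited -log10 p to within 0.000293. The code was tested on simulated data. Spans and starts came from RefSeq, GRCm38.p6, the same build as mm10. Python 3.11.15, numpy 2.4.6, pandas 2.3.3 and scipy 1.17.1 were used. Intervals are exact binomial ones at 95%.

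All 50 genes are accounted for. Values are given for every gene with overlapping peaks, for the strongest peak of each list and for genes with most peaks. Summits near starts are all drawn in the figure of summit positions, and only some have values in the text. The genes, lists and rules were chosen with earlier results of these data known. The GC classes, the ratio of pileup to background and the bins around starts were chosen after the counts were seen.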

Additional observations from a re-analysis of the deposited data

How the results depend on the processing

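Of 32 recomputed counts of 6 results, 19 stayed within 1.5 times of the count given above and 13 did not. Of the 19, 2 could not move, since shortening the deficient-diet list leaves the normal-diet list as it was. At a -log10 q of 5 or more, 23 genes had a normal-diet peak, 24 a deficient-diet peak, 14 both and 4 overlapping peaks, with 27 and 29 peaks. Protein-coding genes then had 24.5% and 24.9% with a peak, 11.1% with both and 3.96% with overlapping peaks. At a fold enrichment of 4 or more, the deficient-diet count fell to 16 genes and 17 peaks. The normal-diet count was 37 genes and 67 peaks, 16 genes had both, and 5 had overlapping peaks. Protein-coding genes at this threshold had 42.3% with a normal-diet peak, 14.8% with a deficient-diet peak, 10.5% with both and 3.70% with overlapping peaks. This threshold keeps 4647 of the deficient-diet and 17337 of the normal-diet peaks, so the order of the lists turned by its construction. A deficient-diet list of equal length left 87 peaks, as many as the normal-diet list. Overlap by 50% of both peaks, or summits within 100 bp, each left 13 genes, and the shares of protein-coding genes by these rules were not computed. Windows of 0 or 1 kb moved no count by more than 1.5 times. Under every setting for which both were computed, the shares of Wnt pathway genes stayed above those of all protein-coding genes. Beyond the counts given above, none was compared by span class or GC class. Pileups of under 32 fragments limit what can be said of any single site. No paired analysis was possible because a diet with a single library offers no replicate to pair or to omit.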
